A study of Mus musculus with 3 samples.

Results

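The 31 genes described here encode enzymes, carriers and regulators of fatty acid oxidation, and they were chosen by name out of the 32285 genes listed in each of 3 single-cell RNA libraries of mouse lung. All 31 were found in the files. They comprised 19 genes of the mitochondrial route (4 of the carnitine shuttle, 12 of mitochondrial beta-oxidation and 3 of electron transfer), 6 of peroxisomal beta-oxidation, 4 acyl-CoA synthetases and 2 regulators of fuel use. The series title names an unrelated subject, and the groups follow the sample labels.

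The groups were PPARg-/- tumour (Ccsp-rtTA;TetO-EGFRL858R with Pparγfl/fl and Csf1rCre), WT tumour (the same transgenes with Pparγfl/fl and no Cre) and WT healthy (Ccsp-rtTA;TetO-EGFRL858R alone). All mice were 16 to 20 weeks old and ate doxycycline chow at 625 ppm, which switches on mutant EGFR, a lung cancer oncogene, in the airway and alveolar epithelium. How the WT healthy mice stayed free of tumours is not given in the labels. Csf1rCre acts in the monocyte and macrophage lineage, and Pparg encodes PPARγ, a lipid-sensing nuclear receptor that alveolar macrophages need to mature. Each group was 1 library from 3 pooled mice, into which 4 sorted populations were mixed in equal amounts: cells gated as alveolar macrophages by CD11c and SigF, other macrophages by CD11b without Ly6G, T cells by CD3 and epithelium by EPCAM. A single library stands for each group, so differences between groups could not be tested, and every interval below is an exact 95% interval for counting error only.

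To be oxidised, a long-chain fatty acid is joined to coenzyme A by a synthetase, passed across the mitochondrial membranes as a carnitine ester, and shortened in repeated rounds of dehydrogenation, hydration, a further oxidation and thiolysis. Electrons of the first step reach the respiratory chain through the electron transfer flavoprotein. Peroxisomes run a parallel chain on very long and branched fatty acids, in which an oxidase passes the electrons to oxygen instead. Alveolar macrophages live on surfactant lipid, and PPARγ and its relative PPARα are known regulators of many genes of these routes.

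The libraries held 44548318, 46148658 and 30454790 UMIs in PPARg-/- tumour, WT tumour and WT healthy, and 4995, 4268 and 2894 cells were kept at medians, before doublets were removed, of 3527, 4920.5 and 5667 UMIs. Pairs of libraries shared 3 to 6 cell barcodes. The macrophages compared were, for each library, those of its biggest cluster outside the cell cycle in which 5 or more of 10 alveolar macrophage markers were raised (its main macrophage cluster), and they numbered 1159, 950 and 861 cells in the same order. Of the 10 alveolar markers, 5, 9 and 10 were raised in these clusters, and of 12 interstitial macrophage markers 8, 1 and 1, so by its markers the PPARg-/- tumour cluster was named interstitial, against the alveolar name of the others. Summed alveolar markers stood at 13326, 21601 and 21731 CPM (counts per 1000000 summed UMIs of those cells) and summed interstitial markers at 19505, 1313 and 1547 CPM. Pparg itself (chromosome 6, 115360951 to 115490399 of GRCm38) read 376, 172 and 197 CPM, and 3' reads do not check a deletion inside the gene. Xist, made by the inactive X chromosome, read 0.203, 0 and 1443 CPM, and the Y-linked Ddx3y 61.9, 86.2 and 0 CPM, so sex differed between the tumour libraries and the WT healthy library although the labels name both sexes. The members and related pathway genes were kept out of the genes used for clustering.

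In the main macrophage clusters the peroxisomal route was lower as a whole in PPARg-/- tumour than in WT tumour, and the mitochondrial route in part. All 6 peroxisomal genes were lower by 1.5-fold or more with an interval excluding 1, the rule of size used here for every call, against 8 of the 19 mitochondrial genes. Over all 31 members, 16 were lower and 1, Ucp2, was higher. Among the 12081 genes with at least 20 UMIs over both clusters, 18.3% were lower and 15% higher by the same rule. The median log2 ratio was -1.45 over the peroxisomal genes, -0.44 over the mitochondrial genes and -0.61 over all members, against -0.14 over all genes measured. Levels are shares of each cluster's own summed UMIs, so these ratios are relative to those totals. On that scale the middle gene itself stood at -0.14. Centring on that gene ended the calls of Cpt1a, Slc25a20, Hadha and Hadhb.

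**Figure D1:**
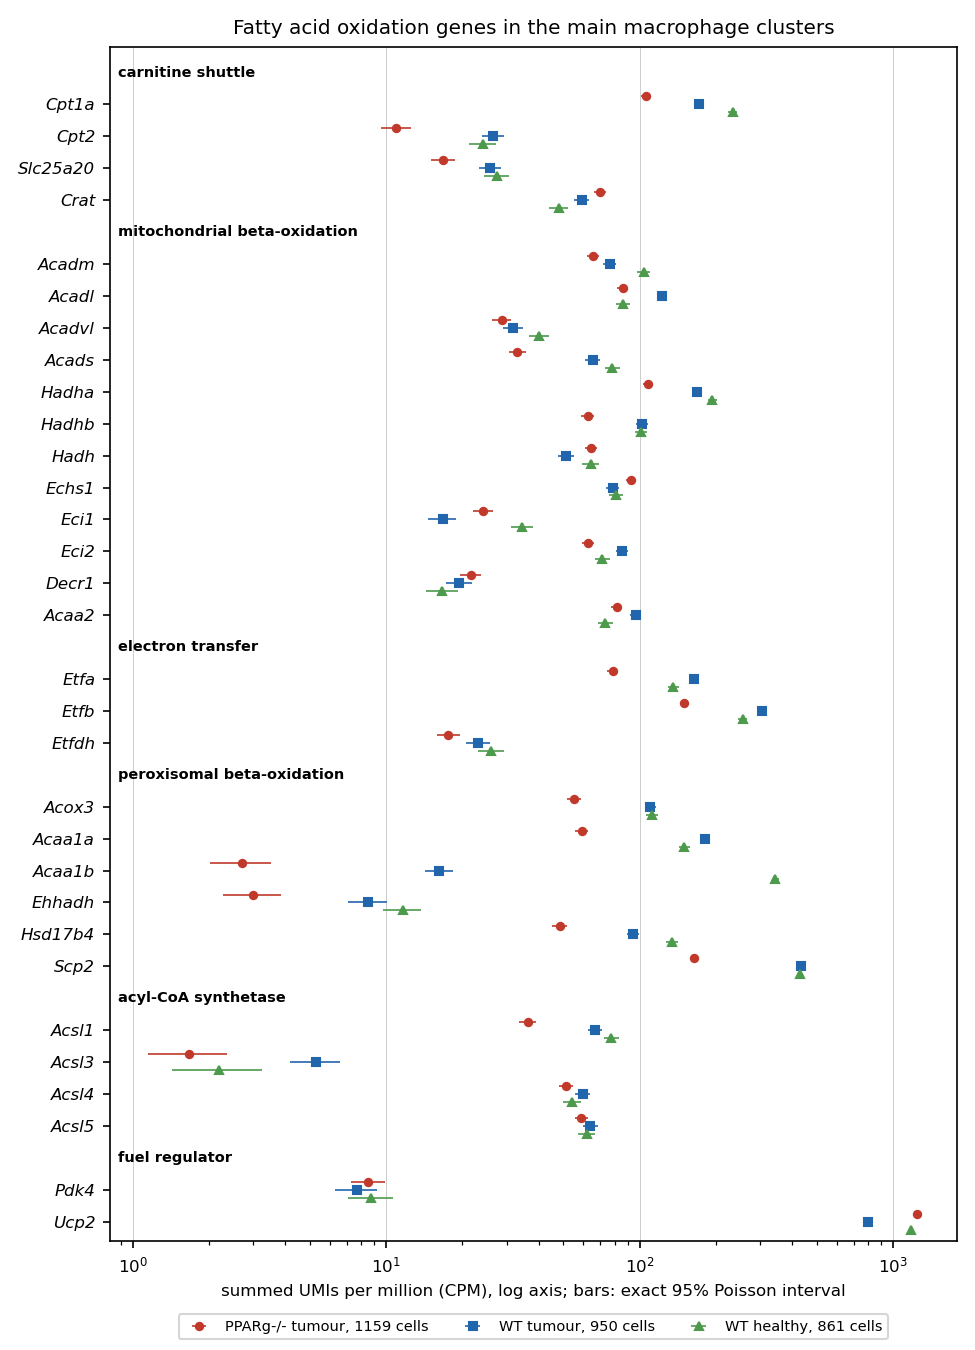
Levels of the members in the main macrophages by library, in CPM on a log axis, with exact 95% Poisson intervals. The PPARg-/- tumour points lie left of both WT points for all 6 peroxisomal genes, and Acaa1b spans 2.69, 16.2 and 344 CPM in PPARg-/- tumour, WT tumour and WT healthy.

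Of the 4 acyl-CoA synthetases, which activate long-chain fatty acids, Acsl1 and Acsl3 were lower. Acsl1, a synthetase linked to oxidation in heart and to inflammatory activation in macrophages, had 36.2 CPM in PPARg-/- tumour, 66.6 CPM in WT tumour and 77.5 CPM in WT healthy (log2 ratio -0.88, -1.02 to -0.74, between the tumour libraries). Acsl3, which works on the endoplasmic reticulum and lipid droplets, was scarce at 1.68, 5.27 and 2.20 CPM and was both lower in PPARg-/- tumour than in WT tumour (-1.65, -2.29 to -1.05) and higher in WT tumour than in WT healthy (1.26, 0.59 to 1.97). These Acsl3 values rest on 33, 77 and 25 UMIs and reversed when each cell was thinned to 1000 UMIs. Acsl4, which prefers arachidonate, had 51.2, 59.6 and 54.2 CPM, and Acsl5 had 59.0, 64.0 and 61.9 CPM. Both differed by less than 1.5-fold, with log2 ratios of -0.22 and -0.12 between the tumour libraries.

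The carnitine shuttle was lower in 3 of its 4 steps. Cpt1a, the outer membrane carnitine palmitoyltransferase and rate-limiting entry step, stood at 106 CPM in PPARg-/- tumour, 172 CPM in WT tumour and 233 CPM in WT healthy, a log2 ratio of -0.70 (-0.79 to -0.62) between the tumour libraries and -0.44 (-0.52 to -0.36) between the WT libraries. Its partner on the inner membrane, Cpt2, stood at 10.98, 26.5 and 24.0 CPM (-1.27, -1.52 to -1.03, in PPARg-/- tumour over WT tumour). The carrier between them, Slc25a20, stood at 16.8, 25.8 and 27.4 CPM, close to the fold limit at -0.61 (-0.83 to -0.40). Crat, the acetyltransferase that buffers short acyl groups, was above WT tumour by less than 1.5-fold (0.24), at 69.9, 59.2 and 47.9 CPM. Cpt1a was thus lowest of the 3 libraries in PPARg-/- tumour and highest in WT healthy, whereas Crat had the opposite order.

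The Cpt1a promoter window of RefSeq is shown because this entry step is a known target of PPAR receptors. It spans chr19:3323051-3323350 of GRCm38.p6 on the plus strand, 250 bases before to 50 after the start, and the capitals mark the 6-base nuclear receptor element AGGTCA on the other strand at -94.
Cpt1a: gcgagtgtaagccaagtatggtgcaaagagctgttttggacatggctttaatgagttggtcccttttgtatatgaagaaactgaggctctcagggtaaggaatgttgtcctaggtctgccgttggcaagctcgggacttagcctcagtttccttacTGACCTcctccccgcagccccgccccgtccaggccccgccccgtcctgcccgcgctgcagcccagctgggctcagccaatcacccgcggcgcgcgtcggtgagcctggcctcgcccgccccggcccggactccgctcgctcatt

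In mitochondrial beta-oxidation only Acads, Hadha and Hadhb, 3 of the 12 enzymes, were lower by the rule in PPARg-/- tumour. Acads, the short-chain acyl-CoA dehydrogenase, had 32.9 CPM in PPARg-/- tumour, 65.3 CPM in WT tumour and 78.2 CPM in WT healthy (log2 ratio -0.99, -1.13 to -0.84, between the tumour libraries). Hadha and Hadhb, which encode the subunits of the trifunctional protein of the inner membrane, had 108 and 62.5 CPM in PPARg-/- tumour, 169 and 102 CPM in WT tumour, and 193 and 101 CPM in WT healthy. Their log2 ratios between the tumour libraries were alike at -0.64 (-0.73 to -0.56) and -0.71 (-0.82 to -0.60). The medium-, long- and very-long-chain dehydrogenases Acadm, Acadl and Acadvl were also below WT tumour, by less than 1.5-fold, at -0.22, -0.51 and -0.15. Acadm had 65.4 CPM in PPARg-/- tumour, 76.3 CPM in WT tumour and 104 CPM in WT healthy, Acadl 85.7, 122 and 85.9 CPM, and Acadvl 28.6, 31.7 and 40.3 CPM.

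The enzymes of the later steps did not share one direction. Hadh, the short-chain hydroxyacyl-CoA dehydrogenase, Echs1, the crotonase, Eci1, an isomerase for unsaturated chains, and Decr1, the dienoyl-CoA reductase, lay above WT tumour at 0.32, 0.24, 0.53 and 0.15. Echs1 had 92.7, 78.3 and 81.0 CPM and Decr1 21.6, 19.5 and 16.6 CPM in PPARg-/- tumour, WT tumour and WT healthy. Eci2, a second isomerase found in mitochondria and peroxisomes, and Acaa2, the mitochondrial thiolase, lay below at -0.44 and -0.25. Eci2 had 62.5, 85.1 and 71.3 CPM and Acaa2 81.4, 96.6 and 73.3 CPM. Eci1 was the mitochondrial enzyme that differed by the rule between the WT libraries, with 24.1 CPM in PPARg-/- tumour, 16.7 CPM in WT tumour and 34.5 CPM in WT healthy (-1.05, -1.28 to -0.81, in WT tumour over WT healthy). It was thus lowest in WT tumour of the 3 libraries, a pattern shared with Hadh at 64.3, 51.4 and 64.1 CPM.

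Hadha and Hadhb lie head to head on chromosome 5, at 30118304 to 30155162 and 30155248 to 30184593 of GRCm38. Their promoter windows overlap by 228 bases, in capitals below within the Hadha window, chr5:30154931-30155230 on the minus strand of GRCm38.p6. It is shown because the pair shares this sequence and had like ratios between the tumour libraries. No AGGTCA element stands in it on either strand. Between the WT libraries Hadha had 169 CPM in WT tumour and 193 CPM in WT healthy, and Hadhb 102 and 101 CPM. A bearing of the shared sequence on these levels was not tested.
Hadha: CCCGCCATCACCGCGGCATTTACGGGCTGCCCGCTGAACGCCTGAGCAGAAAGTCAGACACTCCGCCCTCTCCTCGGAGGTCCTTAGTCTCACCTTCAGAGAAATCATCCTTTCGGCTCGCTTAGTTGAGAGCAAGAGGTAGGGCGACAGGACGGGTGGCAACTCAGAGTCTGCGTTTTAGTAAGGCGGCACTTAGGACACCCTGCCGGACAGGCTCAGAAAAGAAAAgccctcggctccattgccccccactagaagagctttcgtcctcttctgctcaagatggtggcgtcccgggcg

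Electron transfer was lower in both subunits of its flavoprotein. Etfb had 149 CPM in PPARg-/- tumour, 304 CPM in WT tumour and 255 CPM in WT healthy, and Etfa 78.3, 164 and 136 CPM in the same order. Their log2 ratios between the tumour libraries were -1.03 (-1.10 to -0.96) and -1.06 (-1.16 to -0.97). The dehydrogenase Etfdh, which receives these electrons and hands them to ubiquinone, had 17.6, 23.0 and 26.0 CPM and stayed inside the fold limit at -0.38 (-0.60 to -0.16). Summed over its 3 genes the group stood at 245 CPM in PPARg-/- tumour, 491 CPM in WT tumour and 417 CPM in WT healthy.

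Peroxisomal beta-oxidation had the lowest median ratio of the 6 roles between the tumour libraries. Scp2, whose products include the thiolase for branched chains and a sterol carrier, had 164 CPM in PPARg-/- tumour, 432 CPM in WT tumour and 431 CPM in WT healthy (log2 ratio -1.40, -1.46 to -1.34, between the tumour libraries). Acaa1a, the straight-chain thiolase, had 59.2, 181 and 150 CPM (-1.61, -1.71 to -1.51). Acox3, an oxidase for branched chains, had 55.1, 110 and 112 CPM (-0.999, -1.11 to -0.89). Between the WT libraries the log2 ratios of Scp2 and Acox3 were 0.00 and -0.02.

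The bifunctional enzymes of the same chain were lower too. Hsd17b4, the D-bifunctional protein, had 48.4 CPM in PPARg-/- tumour, 94.04 CPM in WT tumour and 134 CPM in WT healthy (-0.96, -1.08 to -0.84, between the tumour libraries). Ehhadh, the L-bifunctional protein, was scarce at 2.998, 8.49 and 11.6 CPM (-1.50, -1.97 to -1.04). In WT tumour over WT healthy they stood at -0.51 and -0.45, inside the fold limit. The call of Ehhadh, and that of Acaa1b below, was lost when cells were thinned to 1000 UMIs, with ratios of -2.87 and -4.37 there. Over all 13 settings the ratio of Ehhadh lay at -1.08 or below and that of Acaa1b at -1.89 or below. Within single cells the 6 genes together had a median of 3.20 UMIs per 10000 in PPARg-/- tumour (quartiles 2.24 and 4.21), 8.27 in WT tumour (6.49 and 10.4) and 11.5 in WT healthy (8.21 and 14.7), so the quartile ranges of the tumour libraries did not overlap. Cells of 1 library are not replicates, and this spread describes the cells, not the mice.

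Acaa1b, a second peroxisomal thiolase on the same chromosome as Acaa1a, set the WT libraries apart. It had 2.69 CPM in PPARg-/- tumour (2.02 to 3.52), 16.2 CPM in WT tumour (14.2 to 18.4) and 344 CPM in WT healthy (333 to 355). It was lower by 6.03-fold in PPARg-/- tumour than in WT tumour. In WT tumour it was lower by 21.2-fold than in WT healthy (log2 ratio -4.40, -4.60 to -4.21). Tumour, sex and the floxed Pparg allele all differ between the WT libraries and cannot be told apart here. Acaa1b made up 0.811% of all peroxisomal UMIs in PPARg-/- tumour macrophages, 1.93% in WT tumour and 29.1% in WT healthy. The other copy, Acaa1a, stood higher in WT tumour than in WT healthy by 0.27 (0.18 to 0.36). The copies thus differed in direction between the WT libraries. Of the 351 words of 50 bases in the last 400 bases of each transcript, 127 (36.2%) occur in the other, and reads from those stretches may be split or lost between the genes.

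The other classes of the WT healthy library had 2.52 to 8.17 CPM of Acaa1b where at least 50 cells were present, on 1 to 13 UMIs each. Free RNA, read from barcodes of 10 to 100 UMIs, held 199 CPM of Acaa1b in that library, and these low values are open to it. WT healthy alveolar macrophages in cycle, 45 cells, had 176 CPM.

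Promoter windows of both thiolases and of Scp2 are shown. Acaa1b was chosen because it had the lowest ratio of the 6 peroxisomal genes in both comparisons. Acaa1a is its other copy on that chromosome, and Scp2 holds the searched element. Acaa1a lies on chromosome 9 at 119339676 to 119350299 and Acaa1b at 119148023 to 119157093 of GRCm38, on opposite strands. The windows are chr9:119341044-119341343 (plus strand), chr9:119157044-119157343 (minus strand) and chr4:108118498-108118797 (minus strand) of GRCm38.p6 in RefSeq. Capitals mark the longest run shared by the thiolase windows, 8 bases that contain a CCAAT box on the other strand, and in Scp2 the AGGTCA element at -109.
Acaa1a: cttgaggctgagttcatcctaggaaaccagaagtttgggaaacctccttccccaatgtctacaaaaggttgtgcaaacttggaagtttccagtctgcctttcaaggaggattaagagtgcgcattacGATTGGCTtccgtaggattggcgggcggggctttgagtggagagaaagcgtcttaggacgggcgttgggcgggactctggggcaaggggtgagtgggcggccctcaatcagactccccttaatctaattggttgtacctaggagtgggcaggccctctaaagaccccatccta
Acaa1b: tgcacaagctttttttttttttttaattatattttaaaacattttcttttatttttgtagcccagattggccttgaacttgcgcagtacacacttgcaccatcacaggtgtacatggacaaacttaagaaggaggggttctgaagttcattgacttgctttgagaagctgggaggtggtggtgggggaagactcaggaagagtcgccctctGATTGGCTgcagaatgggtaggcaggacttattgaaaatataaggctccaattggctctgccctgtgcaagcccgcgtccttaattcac
Scp2: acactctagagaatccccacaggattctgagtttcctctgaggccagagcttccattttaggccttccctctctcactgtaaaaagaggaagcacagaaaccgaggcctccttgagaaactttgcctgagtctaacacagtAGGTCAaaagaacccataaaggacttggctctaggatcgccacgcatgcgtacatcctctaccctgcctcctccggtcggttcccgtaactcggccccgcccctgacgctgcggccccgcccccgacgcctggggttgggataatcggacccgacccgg

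Windows of 27 members, 28 in all, were matched by symbol. Member windows on chromosome 18, where Acaa2 and Hsd17b4 lie, were left out, a step not applied to the windows used for comparison. Crat and Decr1 were not in the set either. AGGTCA stood on either strand in 5 of them (Acadm, Scp2, Echs1, Acadvl and Cpt1a), or 17.9%, against 16.3% of 32851 windows of the same length. The paired element to which PPAR and RXR bind was searched on both strands as 2 copies of AGGTCA or AGGGCA with 1 base between. It was in 0 of these 28 member windows and in 0.149% of all windows. A missing match says only that these letters are not in this window.

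The regulators of fuel use did not follow the enzymes. Ucp2, an inner membrane carrier tied to the use of fatty acids and glutamine, had 1245 CPM in PPARg-/- tumour, 794 CPM in WT tumour and 1173 CPM in WT healthy. It was the single member called higher between the tumour libraries (log2 ratio 0.65, 0.62 to 0.68) and lay lower in WT tumour than in WT healthy by a log2 ratio of -0.56 (-0.60 to -0.53), just inside the fold limit. The first call sits at the fold limit and was lost in 4 of 13 other settings, where the ratio went no lower than 0.54. Pdk4, the kinase that closes pyruvate dehydrogenase when fat is burned and a classical PPAR target, had 8.49, 7.67 and 8.72 CPM with overlapping intervals. Ucp2 was therefore lowest in WT tumour, while Pdk4 could not be told apart between the libraries at this depth.

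**Figure D2:**
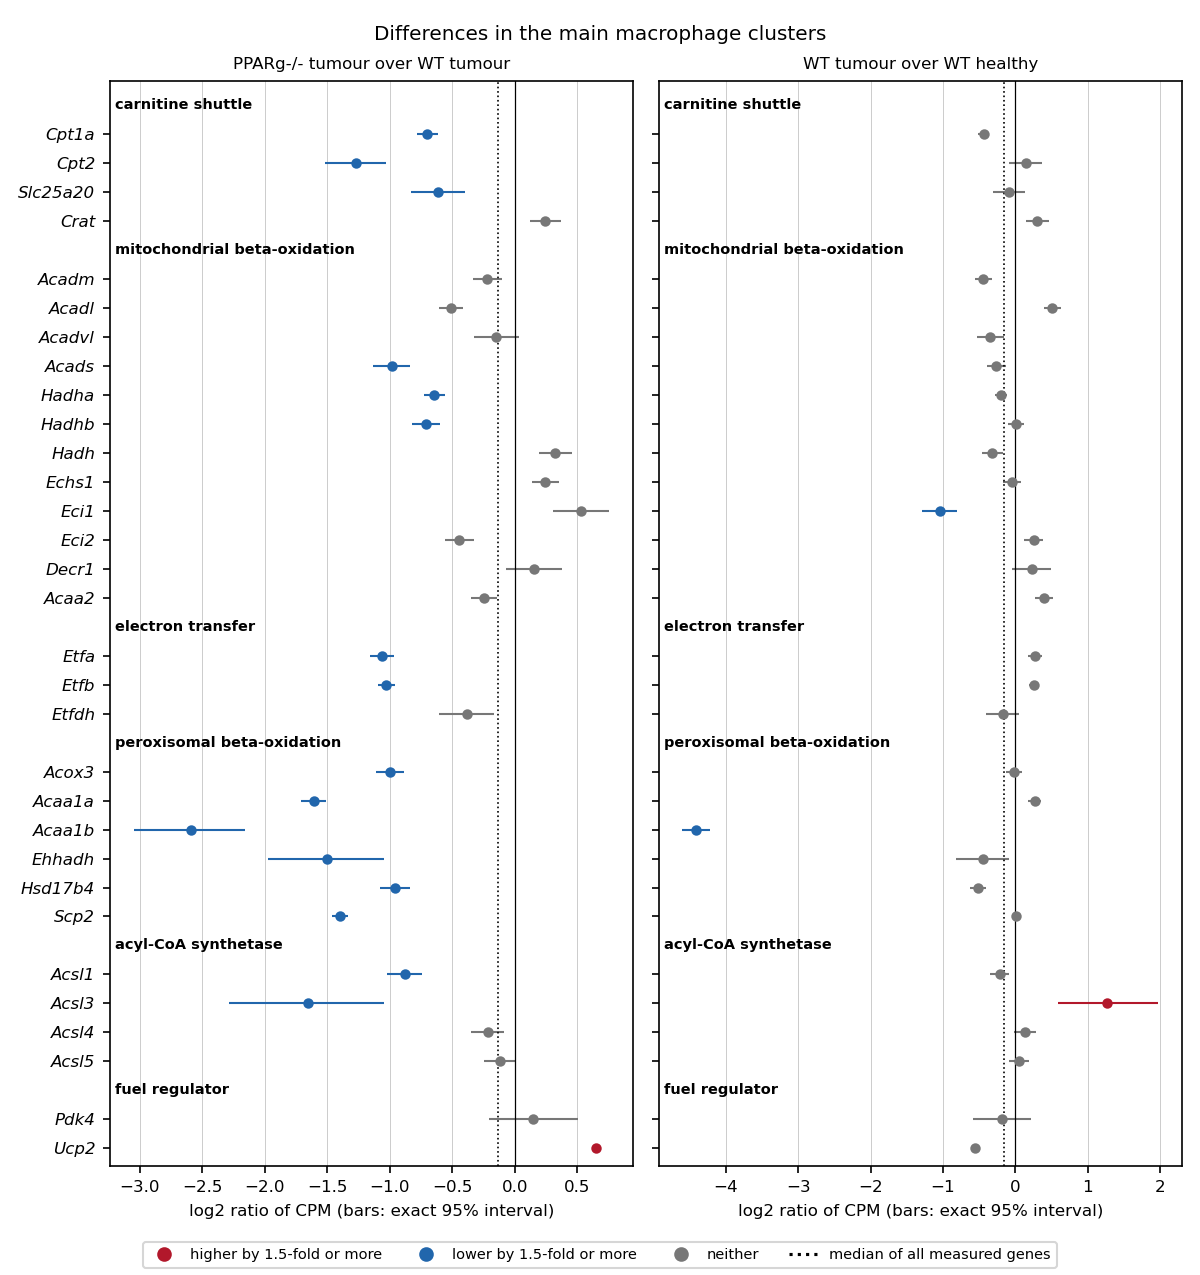
Log2 ratios of CPM with exact 95% intervals for PPARg-/- tumour over WT tumour (left) and WT tumour over WT healthy (right) in the main macrophage clusters, coloured by the call, with the median of all measured genes dotted. On the left all 6 peroxisomal genes lie at -0.96 or below, and on the right Acaa1b stands alone at -4.40; the panels have different scales.

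Between the WT libraries few members differed. These libraries differ in tumour, sex and the floxed Pparg allele at once, which cannot be told apart. In WT tumour over WT healthy 1 member (Acsl3) was higher and 2 (Eci1 and Acaa1b) were lower, against backgrounds of 7.43% higher and 15.3% lower among 11527 genes with a median log2 ratio of -0.16. The medians were -0.05 over all members, -0.05 over the mitochondrial genes and -0.24 over the peroxisomal genes. The other 28 members lay between -0.56 and 0.51 on the log2 scale. Acadl, the long-chain dehydrogenase, was at the top of this range with 122 CPM in WT tumour and 85.9 CPM in WT healthy. A list of 14 dissociation stress genes summed to 1702 CPM in PPARg-/- tumour, 1368 CPM in WT tumour and 2816 CPM in WT healthy, and 10 of the 14 were lower in WT tumour than in WT healthy. In PPARg-/- tumour over WT tumour 4 of the 14 were higher and 1 lower. Without cells that held a UMI of Hspa1a, Hspa1b or Egr1, the peroxisomal median was -1.49 between the tumour libraries and -0.18 between the WT libraries.

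The balance of the routes set the PPARg-/- tumour macrophages apart from those of both WT libraries. Mitochondrial genes summed to 1178 CPM in PPARg-/- tumour, 1688 CPM in WT tumour and 1693 CPM in WT healthy, and peroxisomal genes to 332, 842 and 1183 CPM. Scp2 alone, whose products include a sterol carrier, made up 164, 432 and 431 CPM of these peroxisomal sums. There were 3.55 mitochondrial UMIs per peroxisomal UMI in PPARg-/- tumour (3.45 to 3.65), 2.01 in WT tumour (1.96 to 2.05) and 1.43 in WT healthy (1.40 to 1.46). Without Acaa1b the same ratios were 3.58, 2.05 and 2.02, so that the intervals of the WT libraries then overlapped (2.00 to 2.09 and 1.97 to 2.07).

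Over the other cell classes of at least 50 cells the ratio ran between 1.25 and 4.05. T cells had 2.12, 2.26 and 2.15 mitochondrial UMIs per peroxisomal UMI in PPARg-/- tumour, WT tumour and WT healthy, and endothelial cells 3.58, 3.5 and 4.05. Nonclassical monocytes had 1.53, 1.25 and 1.64, and classical monocytes 1.44, 1.63 and 1.87. Type 2 alveolar epithelial cells (AT2 cells, which make surfactant) had 2.17 in PPARg-/- tumour and 1.85 in WT tumour. B cells had 3.05 (2.34 to 4.03), 2.8 (2.01 to 3.95) and 3.75 (2.86 to 4.98) in PPARg-/- tumour, WT tumour and WT healthy. Type 1 alveolar cells had 3.27 (2.99 to 3.59) in WT tumour. The PPARg-/- tumour macrophages thus lay near endothelial cells on this scale, but not near those alone. None of the 6 other classes with at least 50 cells in every library ordered the libraries as the main macrophages did. In other classes of at least 50 cells in both tumour libraries, only classical monocytes and T cells had a lower ratio in PPARg-/- tumour. Interstitial macrophages had 2.52 there and 2.05 in WT tumour. Summed peroxisomal CPM was lower in PPARg-/- tumour in every such class, though by less than in the main macrophages. Its log2 ratio was -0.36 in nonclassical monocytes and -0.30 in AT2 cells, against -1.34 in the main macrophages. In B cells the sum was 176 CPM in PPARg-/- tumour and 238 CPM in WT tumour, on 74 and 50 UMIs, a larger drop than in those 2 classes.

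**Figure D3:**
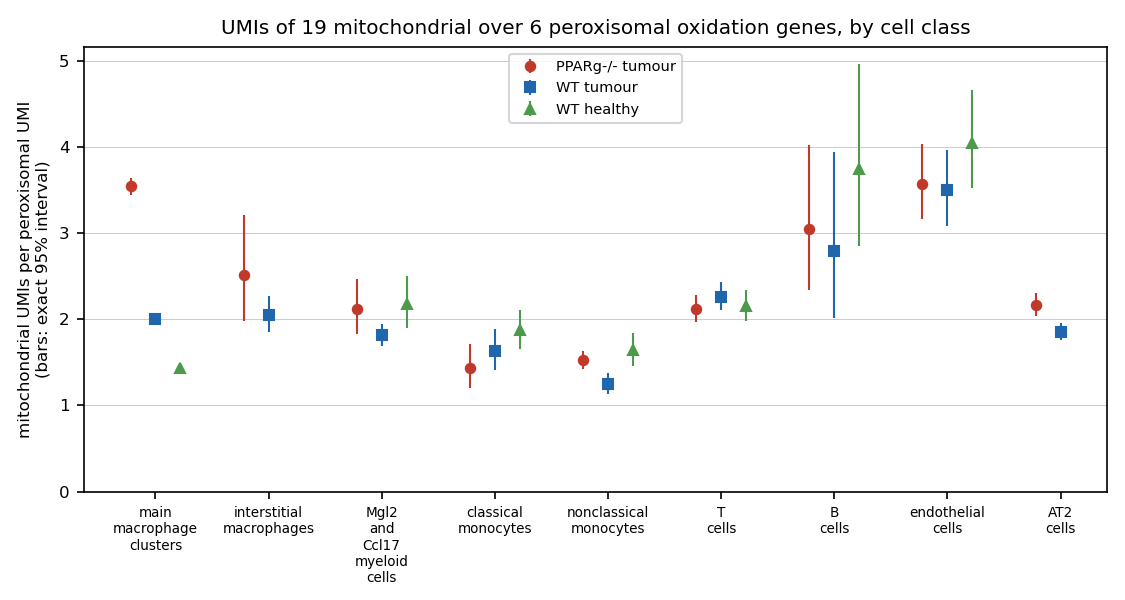
Mitochondrial UMIs per peroxisomal UMI by cell class and library, for classes of at least 50 cells, with exact 95% intervals. The main macrophage clusters are ordered PPARg-/- tumour 3.55, WT tumour 2.01 and WT healthy 1.43, while the T cells of the 3 libraries lie between 2.12 and 2.26.

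Few members were called in any other class between the tumour libraries, where each class must hold 50 cells in both. Called lower in PPARg-/- tumour were Acads in nonclassical monocytes (1 of 28 members measured, with a background over all genes of 9.02% called in either direction), Cpt1a in classical monocytes (1 of 22, background 7.09%) and Cpt1a in AT2 cells (1 of 28, background 9.06%). In T cells Cpt1a and Eci2 were lower (2 of 27, background 6.65%), and Cpt1a there, at 8.98 CPM in PPARg-/- tumour and 20.0 CPM in WT tumour, is open to free RNA. No member was called in B cells (0 of 12, background 10.9%) or endothelial cells (0 of 28, background 7.82%), and Acsl4 was lower in interstitial macrophages (1 of 27, background 8.15%). In a myeloid cluster led by Mgl2 and Ccl17, Hadh, Eci2 and Acaa1a were lower (3 of 28, background 6.75%). These shares lie near or below their backgrounds. Cpt1a was lower by the rule in 4 classes, the main macrophages included, and its log2 ratio was -1.10 (-2.00 to -0.27) in classical monocytes and -0.77 (-1.26 to -0.29) in AT2 cells.

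Shares near the backgrounds were also found between the WT libraries. In WT tumour over WT healthy, Acadl was lower and Echs1 higher in nonclassical monocytes (2 of 25, background 10.2%), and Acadvl was lower and Eci2 and Acaa1a higher in classical monocytes (3 of 25, background 9.55%). Echs1 and Acaa1a were higher in T cells (2 of 27, background 11.9%), Cpt1a and Ucp2 were lower in endothelial cells (2 of 28, background 11.7%), and no member was called in B cells (0 of 10, background 14.3%). Endothelial cells lie outside the sort gates. In the cluster led by Mgl2 and Ccl17, Eci2, Etfa, Acaa1a, Hsd17b4 and Acsl3 were higher (5 of 28, background 15.4%). Acaa1a was higher in WT tumour in 3 of these classes, with log2 ratios of 0.91 in T cells, 0.85 in classical monocytes and 0.77 in the Mgl2 and Ccl17 cluster, against 0.27 in the main macrophages; these classes share their libraries.

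Some members had their highest levels outside macrophages. Acsl4 stood at 690 CPM in AT2 cells of PPARg-/- tumour and 849 CPM in those of WT tumour, against 51.2 and 59.6 CPM in the main macrophages. Scp2 in AT2 cells was at 440 CPM in PPARg-/- tumour and 544 CPM in WT tumour, above macrophages of the same library in both. Pdk4 was read in the main macrophages and in type 1 alveolar cells (29.1 CPM in WT tumour), with at most 2 UMIs in each of the other classes outside alveolar macrophages in cycle. Ucp2 was highest in the main macrophages of each library among classes of at least 50 cells, except in WT tumour, where the interstitial macrophages had 803 CPM against 794 CPM with overlapping intervals (757 to 850 and 779 to 808).

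The PPARg-/- tumour library also held 79 cells that clustered with the main macrophages of WT tumour, which allowed a comparison inside one library. These 79 cells had summed alveolar markers at 19740 CPM and interstitial markers at 1359 CPM, near the WT tumour values, and 284 CPM of Pparg. The main cluster of 1159 cells had 332 CPM of the peroxisomal genes and the 79 cells 876 CPM, and 1178 against 1782 CPM of the mitochondrial genes. Scp2 was at 164 CPM in the main cluster and 503 CPM in the 79 cells (460 to 549), and Acaa1a at 59.2 and 144 CPM (121 to 169). All 6 peroxisomal and 8 of the 19 mitochondrial genes were lower in the main cluster, 15 members in all with 0 higher, against 18% of 11369 genes lower and 8.7% higher. The peroxisomal median was -1.45, the value found against the WT tumour cluster.

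Set against the WT tumour cluster they resembled, the 79 cells had 1 member called higher and 0 called lower of 31 measured, with backgrounds of 5.96% higher and 3.71% lower. The member was Ucp2, at 1211 CPM in the 79 cells (1144 to 1282) and 794 CPM in WT tumour, close to the 1245 CPM of the main cluster of their own library. The medians were 0.00 over the peroxisomal and 0.11 over the mitochondrial genes. Inside the PPARg-/- tumour library the peroxisomal levels thus differed between the clusters, and Ucp2 was high in both. The labels do not say whether Cre had acted in these 79 cells, and loss of PPARγ and a different kind of macrophage cannot be told apart here.

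The 182 interstitial macrophages of WT tumour offered a second point of reference, because the PPARg-/- tumour main cluster carried interstitial markers. Their peroxisomal genes summed to 395 CPM, near the 332 CPM of the PPARg-/- tumour main cluster, and Scp2 stood at 164 CPM in the PPARg-/- tumour main cluster and 182 CPM in the WT tumour interstitial cells (161 to 205). Their mitochondrial genes summed to 810 CPM, below the 1178 CPM of the PPARg-/- tumour main cluster. In PPARg-/- tumour main cells over these interstitial cells 1 peroxisomal gene, Hsd17b4, was lower and 0 were higher, with a median of -0.25. Of the 19 mitochondrial genes 8 were higher (Cpt1a, Crat, Hadh, Echs1, Eci2, Acaa2, Etfa and Etfb) and 0 lower, with a median of 0.45. Over all members 10 were higher and 4 lower, Acsl1, Acsl3 and Acsl4 among the lower, against backgrounds of 12.5% higher and 20.6% lower among 11539 genes with a median of -0.12. The peroxisomal levels of the PPARg-/- tumour cluster thus lay near those of interstitial macrophages, while its mitochondrial levels lay between those and the WT tumour main cluster. This nearness was not particular to interstitial macrophages. In the PPARg-/- tumour library peroxisomal genes summed to 328 CPM in 52 interstitial macrophages and 380 CPM in nonclassical monocytes. They summed to 394 CPM in the Mgl2 and Ccl17 cluster and 410 CPM in classical monocytes of that library.

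**Figure D4:**
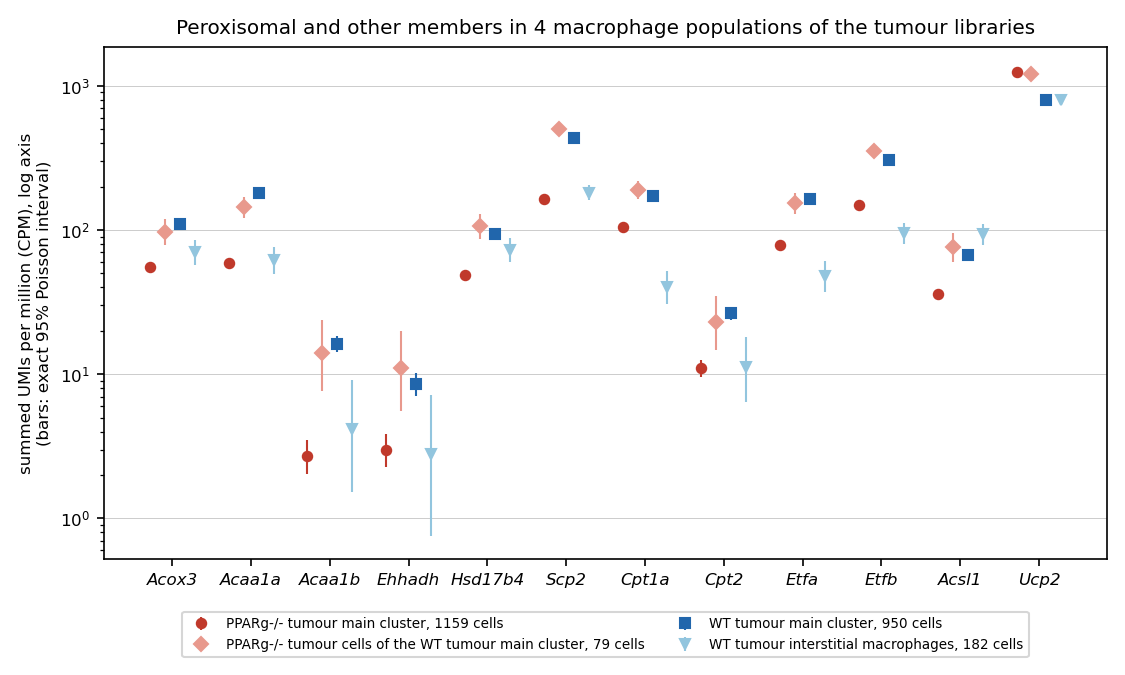
Levels of the 6 peroxisomal genes and of 6 other members in 4 macrophage populations of the tumour libraries, in CPM on a log axis with exact 95% Poisson intervals. Scp2 stands at 164 CPM in the PPARg-/- tumour main cluster, 503 CPM in the 79 PPARg-/- tumour cells that clustered with WT tumour macrophages, 432 CPM in the WT tumour main cluster and 182 CPM in WT tumour interstitial macrophages.

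Genes around the pathway were read in the main macrophage clusters from lists that hold no member, with values given for PPARg-/- tumour against WT tumour. Over the 7 lists 30 of 94 measured genes (31.9%) were lower and 6 (6.38%) higher, against 18.3% and 15% over all genes. Among other genes of peroxisomal metabolism, 10 of 22 measured were lower in PPARg-/- tumour than in WT tumour and 1 was higher, with a median of -0.55. Among the lower ones were Ephx2, an epoxide hydrolase read on 12 and 25 UMIs (-1.49), Far1, which makes the alcohols of ether lipids (64.2 against 175 CPM, -1.44), Ech1, a dienoyl-CoA isomerase (72.1 against 173 CPM, -1.26), and Acot4, a thioesterase (-1.06). Amacr, a racemase for branched chains, was the one called higher (0.80) and is named after its value was seen. Of 16 peroxins, which build peroxisomes, 5 were lower and 2 higher, led by Pex16 (9.71 against 31.7 CPM, -1.71) and Pex11a (10.4 against 24.7 CPM, -1.24) below and Pex26 (4.52 against 1.71 CPM, 1.40) above, with a median of -0.20. The share lower in both lists lay above the 18.3% of all genes, while the peroxin median lay near the -0.14 of all genes. Lower levels were thus found among other genes of peroxisomal metabolism, but the peroxins as a list were close to the middle gene.

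Of 13 measured regulators of these genes, 4 were lower and Pparg was higher, with a median of -0.34. Rxra, the partner with which PPAR receptors bind DNA, had 83.7 CPM in PPARg-/- tumour and 153 CPM in WT tumour (-0.87). Lpin1, a phosphatidate phosphatase and coactivator (74.95 against 195 CPM, -1.38), and Prkaa1, a catalytic subunit of AMP kinase (16.3 against 50.6 CPM, -1.63), were also lower. Esrra, an orphan receptor that drives mitochondrial genes, was lower with a log2 ratio of -0.69. Of 8 measured acyl-CoA binding proteins and other synthetases, with a median of -0.38, 3 were lower, among them Dbi, the acyl-CoA binding protein, at 305 CPM in PPARg-/- tumour and 791 CPM in WT tumour (-1.38). Slc27a1, a fatty acid transport protein, had 130 CPM against 26.3 CPM and the highest ratio of all genes in these lists outside dissociation stress (2.31, 2.15 to 2.46).

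The remaining lists had medians between -0.50 and -0.13, against -0.14 over all genes. A list drawn up as other mitochondrial acyl-CoA genes had 20 measured, though Echdc1 and Nudt7 in it are not mitochondrial enzymes. Of these 3 were lower (Echdc1 at -1.85, Acat1 at -1.10 and Hibch at -1.03) and Nudt7 was higher (0.70). The list's median was -0.13, and its share lower lay below the 18.3% of all genes. Of 10 genes of the pyruvate dehydrogenase switch, which sets glucose against fat, 4 were lower, led by Pdk1 (10.7 against 28.2 CPM, -1.40), with a median of -0.46. Of 5 measured carnitine and malonyl-CoA genes only Acaca, a carboxylase that makes malonyl-CoA, was lower by the rule (14.7 against 25.1 CPM, -0.77), with a median of -0.50. In WT tumour over WT healthy 11 of the 94 measured genes of these 7 lists (11.7%) were lower and 4 (4.26%) higher, below the shares of 15.3% and 7.43% over all genes. Acss1, a mitochondrial acetate synthetase (7.67 against 43.0 CPM, -2.49), Acot4 (-1.47) and Sirt3, a mitochondrial deacylase (-1.14), were the lowest. The genes called higher were Ephx2, on 25 against 1 UMIs (4.28, 1.67 to 9.64), Acss2, a cytosolic acetate synthetase, on 32 against 4 UMIs (2.64, 1.14 to 4.60), Rxra (0.71) and Dbi (0.65).

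**Figure D5:**
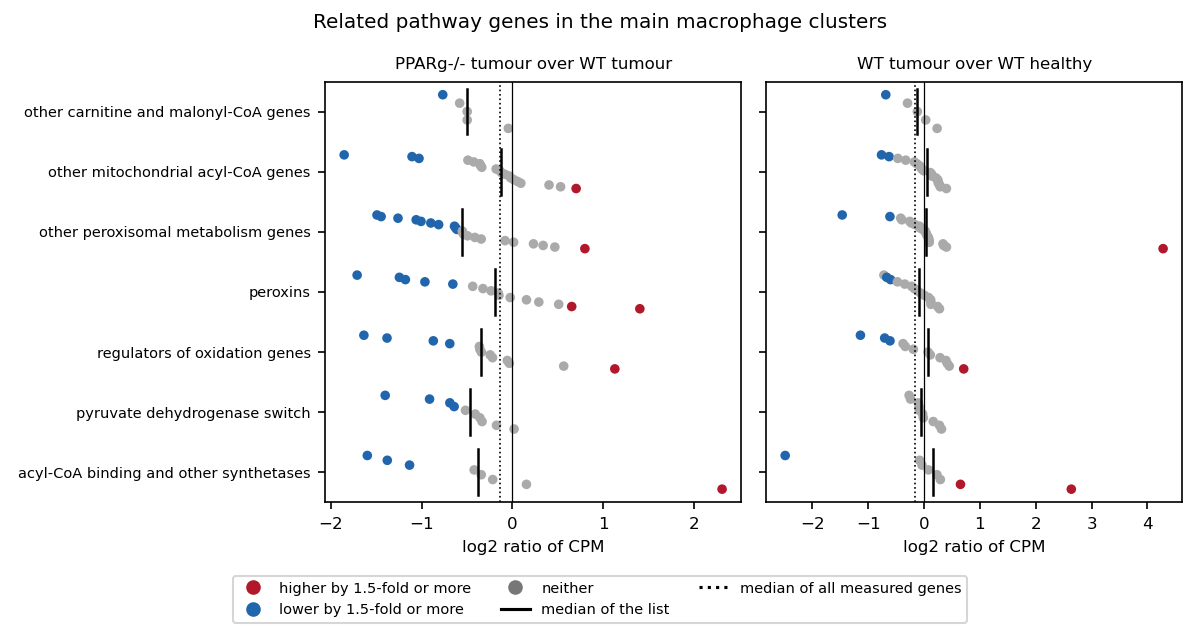
Log2 ratios of the measured genes of 7 related lists in the main macrophage clusters, for PPARg-/- tumour over WT tumour (left) and WT tumour over WT healthy (right), coloured by the call, with each list's median as a black bar and the median of all genes dotted. The median of other peroxisomal metabolism genes lies at -0.55 on the left and 0.03 on the right.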

How the data were processed

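Raw UMI counts per gene and barcode were deposited by the authors, unfiltered. Cell Ranger 6.0.1 and Seurat 4.0.1 are named in the submitters' processing notes, whereas the file headers name Cell Ranger 4. Reads are from the 3' end, so levels of different genes are not on one scale. Barcodes with at least 1000 UMIs, 500 genes and at most 10% mitochondrial UMIs were kept, and doublets were removed with Scrublet in scanpy 1.11.5. The mitochondrial limit removed 7.47%, 12.9% and 15.4% of barcodes in PPARg-/- tumour, WT tumour and WT healthy. Leiden clusters (resolution 1, 30 components, 15 neighbours, 2000 variable genes, igraph 0.11.9) were drawn over all libraries without integration, leaving out the members, the related lists, Pparg and sex-linked genes. Markers counted as raised in a cluster at 4 times the median of all clusters, in at least 10% of its cells. UMI counts were summed per class and library and scaled to CPM, and exact conditional binomial (Clopper-Pearson) intervals at 95% were taken with scipy 1.17.1. A call needs 1.5-fold and an interval excluding 1, a rule of size tried on simulated data. Those data held counting error only, so the trial says nothing of variation between mice or libraries. All members are named, and of each related list up to 5 of the genes called, by size of the ratio. A gene was open to free RNA where 10% of its level in barcodes of 10 to 100 UMIs reached 50% of its class level. Members, lists and the choice of clusters were made with earlier results of these data known. Promoters are RefSeq's (GRCm38.p6). Crat and Eci2, found in both organelles, were counted as mitochondrial. One gene of a related list is not reported here by name.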

Additional observations from a re-analysis of the deposited data

How the results depend on the processing

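Ratios, medians and counts in the main macrophage clusters were recomputed with other choices of clustering, cell filters, weighting, scaling, depth, free RNA, gene minimum and fold; settings on stressed cells, alveolar marker UMIs and C1q UMIs were chosen after seeing the data. No replicate could be left out, and no paired analysis was possible because each group is 1 library. In PPARg-/- tumour over WT tumour the peroxisomal median stayed between -1.55 and -1.02, with -1.02 for all macrophage and monocyte clusters pooled and -1.07 for cells thinned to 1000 UMIs. The mitochondrial median was -0.30 with each library clustered alone, -0.31 at Leiden resolution 2.0 and -0.31 when centred on the median gene. Members called lower numbered 8 at a fold of 2, and members called higher 0 at a fold of 2, with libraries clustered alone and at a mitochondrial limit of 5%, and 2 when centred or without stressed cells. Of the 17 members called, 9 kept their call in all 13 settings that recompute single ratios (Cpt2, Acads, Etfa, Etfb, Acox3, Acaa1a, Hsd17b4, Scp2 and Acsl1); centring ended the calls of Cpt1a, Slc25a20, Hadha and Hadhb. In WT tumour over WT healthy centring moved the medians of all members and of the mitochondrial members to 0.11. There, members called higher numbered 2 with libraries clustered alone, at the 5% limit, without stressed cells and when centred, and 0 when thinned, and members called lower numbered 4 with libraries clustered alone. Thinning reversed Acsl3 in both comparisons, to 1.71 in PPARg-/- tumour over WT tumour and -1.14 in WT tumour over WT healthy. Of PPARg-/- tumour main cells 15 lacked a UMI of C1qa, C1qb and C1qc, too few to compare. Depth limits Acsl3, Ehhadh, Acaa1b in the tumour libraries and Pdk4.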

Other observations

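Alveolar macrophages in cycle formed a cluster of their own, with 23, 94 and 45 cells in PPARg-/- tumour, WT tumour and WT healthy, too few in 2 of the 3 libraries for a comparison. Their mitochondrial UMIs per peroxisomal UMI were 2.95 (2.50 to 3.49), 2.00 (1.87 to 2.14) and 1.82 (1.66 to 2.00) in that order. Peroxisomal genes summed to 522, 823 and 870 CPM and mitochondrial genes to 1540, 1646 and 1583 CPM. The 23 cycling cells of PPARg-/- tumour had summed interstitial markers at 6840 CPM, against 995 CPM in WT tumour and 1102 CPM in WT healthy, and summed alveolar markers at 12908, 15714 and 16357 CPM.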
